A study of Mus musculus with 300 samples.

Results

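Ptpn13, Lonp2, Tagln2, Dpysl2 and Rasgrp2 are 5 genes whose level in single adult mouse spermatogonia follows the brightness of an ID4-EGFP reporter, and which are less familiar in these cells than the receptor gene Gfra1 or the transcription factor gene Etv5. They are 5 of the 23354 gene rows of the expression matrix and 5 of the 10411 genes that passed the filter of at least 1 FPKM (fragments per transcript length and sequencing depth) in at least 30 cells. They were chosen by measured values: their slopes over the brightness quartiles were among the steepest of all genes, and Ptpn13 also stood out by its difference between the brightest and the dimmest quartile. Their rise with brightness is therefore given as a description, with no test.

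The matrix holds 300 single cells from untreated adult testes, all of them carrying the reporter and all sorted as bright for the surface protein CD9 and positive for EGFP. Cells were captured on Fluidigm C1 chips, imaged, and placed by their EGFP fluorescence into 4 quartiles, of which Q4 (72 cells) is the dimmest, followed by Q3 (71 cells), Q2 (78 cells) and Q1 (79 cells), the brightest. The 4 preparations hold 67, 82, 71 and 80 cells, each preparation pooled several mice, and the preparation, read from a number in the cell titles, was taken as the replicate (n = 4). Because every cell was sorted for EGFP, the dimmest quartile is still reporter-positive and there are no reporter-negative cells to set beside it.

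ID4 is a helix-loop-helix protein without a DNA-binding domain, and in mouse testis the brightest reporter cells are known to be richest in spermatogonial stem cells. GFRA1 is the receptor through which the growth factor GDNF from Sertoli cells maintains those stem cells, and Etv5 encodes an ETS-family transcription factor that GDNF signalling induces. KIT marks spermatogonia that have begun to differentiate. The 5 genes have different roles. Ptpn13 encodes a large cytoplasmic protein tyrosine phosphatase with FERM and PDZ domains. Lonp2 encodes the Lon protease of the peroxisome, and Tagln2 (transgelin 2) a small actin-binding protein of the calponin family. Dpysl2, also called CRMP2, binds tubulin and acts in semaphorin 3A signalling in neurons. Rasgrp2 (CalDAG-GEFI) is a calcium-regulated exchange factor that loads GTP onto RAP1, best known from platelets.

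All 5 are protein-coding genes on different chromosomes in the GENCODE vM21 annotation of GRCm38. Ptpn13 lies at chr5:103425192-103598303 on the plus strand, Lonp2 at chr8:86624043-86723873 on the plus strand, Tagln2 at chr1:172500047-172507380 on the plus strand, Dpysl2 at chr14:66802864-66868688 on the minus strand and Rasgrp2 at chr19:6399340-6415216 on the plus strand. Exons of Ptpn13 share 70 bases with the opposite-strand gene Gm42620, and exons of Rasgrp2 share 265 bases with the opposite-strand gene Gm14965. The library kit does not mark strand, so reads from such bases cannot be told apart.

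RefSeq promoter windows of GRCm38.p6, running from 250 bases before to 50 bases after a start site (300 bases), were available for 4 of the 5 genes. Each was searched on both strands for the core CCGGAAG, which the opposite strand reads as CTTCCGG and which ETS-family factors bind. Also searched were 2 E-boxes, the letters that helix-loop-helix dimers bind, namely CAGGTG, read as CACCTG from the opposite strand, and CAGCTG, which reads the same on both. The ETS core occurs in 8.86% of all 32851 windows, the first E-box in 20.2% and the second in 16.3%. The windows that hold the ETS core are printed because Etv5 encodes an ETS factor and rises over the same quartiles. The letters in capitals are the matches, and both windows are on the plus strand.
Lonp2, chr8:86623793-86624092: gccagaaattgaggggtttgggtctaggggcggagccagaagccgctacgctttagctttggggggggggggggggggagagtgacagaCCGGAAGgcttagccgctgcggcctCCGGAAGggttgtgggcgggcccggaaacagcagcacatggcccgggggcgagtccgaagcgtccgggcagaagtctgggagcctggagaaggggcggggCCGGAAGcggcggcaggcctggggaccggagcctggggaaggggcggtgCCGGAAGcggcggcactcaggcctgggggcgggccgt
Rasgrp2, chr19:6401455-6401754: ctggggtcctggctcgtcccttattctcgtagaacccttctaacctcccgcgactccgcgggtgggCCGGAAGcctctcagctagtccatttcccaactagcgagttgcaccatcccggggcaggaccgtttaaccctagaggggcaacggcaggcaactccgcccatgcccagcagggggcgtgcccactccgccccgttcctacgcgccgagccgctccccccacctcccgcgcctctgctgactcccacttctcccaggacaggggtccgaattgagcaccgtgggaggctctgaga
The Lonp2 window holds 4 copies of the core, a number that only 10 of the 32851 windows reach (0.0304%). The Rasgrp2 window, at the second of its listed start sites, holds 1 copy. The windows of Ptpn13 and Tagln2, the other start site of Lonp2 and the other start site of Rasgrp2 hold none, and no window of these genes holds either E-box. A match is a stretch of letters and says nothing on binding in these cells.

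The level of each gene was summarised as the mean of log2(FPKM + 1) over the cells of a quartile in a preparation, which gave 16 means of 15 to 22 cells each. The plot of these means shows each of the 5 genes higher in Q1 than in Q4 in each preparation, though not every step between neighbouring quartiles goes up. Gaps between Q1 and Q4, here and for each gene below, follow from the choice by slope. The share of all tested genes with such a gap, or with neighbouring quartiles that do not overlap, was not counted.

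**Figure D1:**
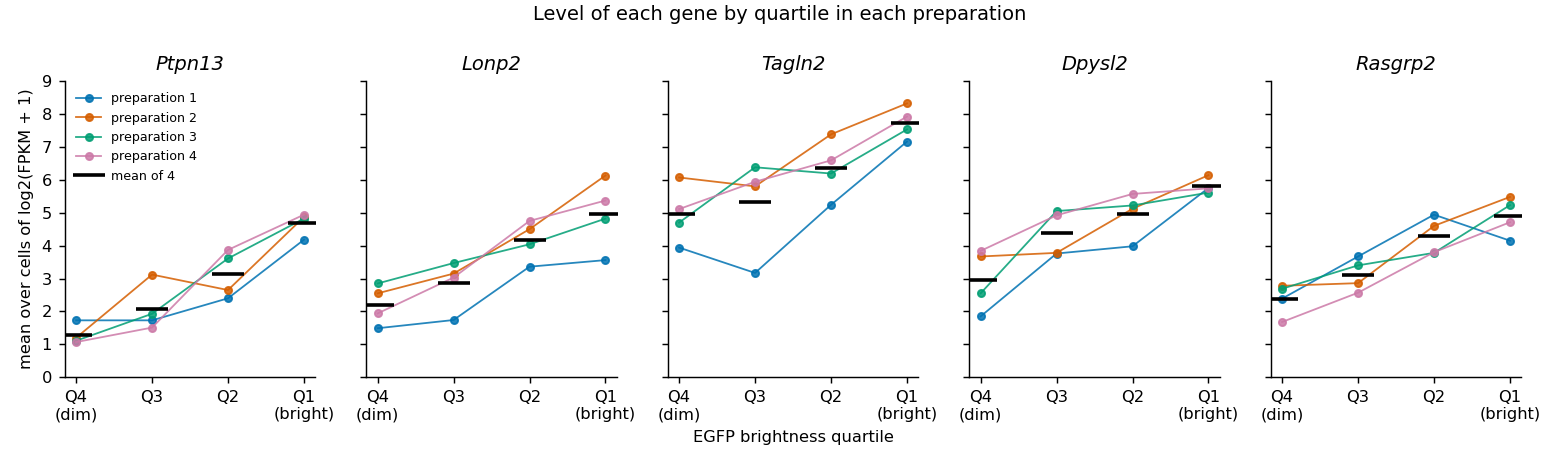
Mean log2(FPKM + 1) over cells (y axis) in each EGFP quartile, dimmest to brightest (x axis), for each gene; coloured points and lines are the 4 preparations and black bars their mean. In each of the 5 panels the 4 Q1 points lie above the 4 Q4 points, which follows from the choice by slope, and the path between them differs from gene to gene.

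Ptpn13, the tyrosine phosphatase, had the steepest climb of the 5. Its mean log2 level in Q1 was 4.18, 4.87, 4.82 and 4.94 in preparations 1 to 4, against 1.73, 1.20, 1.11 and 1.07 in Q4. Every Q1 value lay above every Q4 value. From Q4 to Q1 the quartile means were 1.28 ± 0.30, 2.07 ± 0.72, 3.13 ± 0.72 and 4.70 ± 0.35 (SD, n = 4). Q1 also stood clear of Q2, whose highest preparation reached 3.87, while the ranges of Q2 and Q3 and of Q3 and Q4 overlapped. In preparation 2 the Q3 mean, 3.12, was above the Q2 mean, 2.65.

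Lonp2, the peroxisomal protease, had Q1 means of 3.56, 6.13, 4.82 and 5.37, against 1.49, 2.55, 2.85 and 1.94 in Q4. The groups did not overlap, but preparation 1 was the lowest of the 4 in every quartile. The quartile means from Q4 to Q1 were 2.21 ± 0.61, 2.85 ± 0.76, 4.16 ± 0.61 and 4.97 ± 1.08 (SD, n = 4). Each step up was positive in all 4 preparations, and each pair of neighbouring quartiles overlapped. Preparation 1 also had the fewest detected genes per cell, 4368 on average against 5572 to 6216 in the others, and the part of that in its low Lonp2 means was not tested.

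Tagln2, the actin-binding protein gene, was the most abundant of the 5 on this per-length scale. Its Q1 means were 7.16, 8.32, 7.53 and 7.92, against 3.94, 6.07, 4.70 and 5.11 in Q4, with no overlap. From Q4 to Q1 the quartile means were 4.96 ± 0.89, 5.32 ± 1.46, 6.35 ± 0.89 and 7.73 ± 0.50 (SD, n = 4). The dim end was uneven: Q3 was above Q4 in 2 of 4 preparations only, whereas Q1 was above Q2 in all 4, by 0.94 to 1.92 log2 units. All neighbouring quartiles overlapped in range.

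Dpysl2, the tubulin-binding protein gene, had Q1 means of 5.75, 6.14, 5.61 and 5.74, against 1.85, 3.67, 2.55 and 3.84 in Q4. The Q1 values sat within a narrow band and the Q4 values were spread widely, without touching it. The quartile means from Q4 to Q1 were 2.97 ± 0.95, 4.37 ± 0.70, 4.97 ± 0.69 and 5.81 ± 0.23 (SD, n = 4). Its largest mean step was the first one, 1.40 ± 1.04 between Q3 and Q4, although that step was only 0.11 in preparation 2. Q1 did not overlap Q2, but the lowest Q1 mean, 5.61, was close to the highest Q2 mean, 5.57. The step from Q2 to Q1 was 1.77, 1.02, 0.40 and 0.17 in preparations 1 to 4.

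Rasgrp2, the RAP1 exchange factor gene, had Q1 means of 4.15, 5.48, 5.23 and 4.71, against 2.39, 2.78, 2.69 and 1.68 in Q4, again with no overlap. From Q4 to Q1 the quartile means were 2.39 ± 0.50, 3.12 ± 0.50, 4.28 ± 0.59 and 4.89 ± 0.59 (SD, n = 4). Here the neighbours without overlap were in the middle, where every Q2 mean (3.78 to 4.94) exceeded every Q3 mean (2.57 to 3.67). That step was 1.28, 1.75, 0.37 and 1.22 in preparations 1 to 4. In preparation 3 the step from Q2 to Q1, 1.45, was the larger one. In preparation 1 the level was highest in Q2, at 4.94, and stood at 4.15 in Q1.

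On the log2 scale the slope per quartile towards brighter cells was 1.13 for Ptpn13, 0.96 for Lonp2, 0.94 for Tagln2, 0.91 for Dpysl2 and 0.87 for Rasgrp2. These are ranks 5, 11, 12, 13 and 15 among the slopes of genes at an adjusted p under 0.05. The median of all 10411 slopes is 0.034. The choice was not a cut by rank. Tcl1, Dusp6 and Nefm, at ranks 1 to 3, were not among the 5. Nor were Hhex (1.04), Id4e (1.01), Nid1 (0.99) and Arhgap26 (0.98), at ranks 7 to 10, or the immediate early gene Egr2 (0.88), at rank 14. Impact, at rank 16 just below Rasgrp2, has a slope of 0.86. Gfra1 (1.13) and Etv5 (1.30) have slopes of the same size, and Kit has a slope of -0.44 (limma adjusted p = 0.071). All 5 genes pass the trend test by their choice, and 3.77% of all tested genes rose at an adjusted p under 0.05.

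The shape of the climb and its steadiness over preparations are measured by other contrasts than the slope, and were tested with limma over all 10411 genes. They are not wholly separate from the choice. A bend or uneven slopes widen the error of the trend test, which all 5 genes pass. The shape was measured as curvature, the step from Q2 to Q1 minus the step from Q4 to Q3. It is above 0 when the step at the bright end is larger than the step at the dim end, and the middle step does not enter it. Tagln2 had a curvature of 1.02 (SE 0.49) and Ptpn13 one of 0.78 (SE 0.57), while Dpysl2 had -0.56 (SE 0.54), Rasgrp2 -0.13 (SE 0.53) and Lonp2 0.17 (SE 0.52). None of the 5 passed after Benjamini-Hochberg adjustment. The smallest unadjusted p among them was that of Tagln2, 0.0461 (limma adjusted p = 0.907). Over all genes limma called 0% for curvature, 0 of 10411, with 565 genes (5.43%) at an unadjusted p under 0.05. The SEs of 0.49 to 0.57 log2 units limit how small a bend 4 preparations can show. Etv5, which reached most of its level by Q2, had a curvature of -1.37 (SE 0.52; limma adjusted p = 0.78), and Gfra1 one of 0.23 (SE 0.56).

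Read one by one, every preparation gave a positive slope for every gene of the 5, which a choice by steep mean slopes makes likely. Ptpn13 had slopes of 0.80, 1.05, 1.28 and 1.40 log2 units per quartile in preparations 1 to 4. Lonp2 had 0.78, 1.21, 0.65 and 1.20, and Tagln2 had 1.17, 0.83, 0.83 and 0.91. The order of preparations was thus not shared: preparation 1 had the lowest slope for Ptpn13 and the highest for Tagln2. Dpysl2 had 1.19, 0.88, 0.94 and 0.63, and Rasgrp2 had 0.65, 0.99, 0.80 and 1.03. The range over preparations was 0.34 to 0.59 for the 5 genes, beside a median of 0.40 over all tested genes. No difference of slopes between preparations passed (limma adjusted p = 0.906 to 0.99 for the 5), and limma called 0% of all genes, 0 of 10411, with 560 genes (5.38%) at an unadjusted p under 0.05.

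A higher mean can come from more cells with the transcript or from more transcript in those cells, and both moved here. The share of cells at 1 FPKM or more was, from Q4 to Q1, 30.6%, 49.3%, 61.5% and 89.9% for Ptpn13. For Rasgrp2 it was 62.5%, 77.5%, 89.7% and 94.9%, and for Tagln2 79.2%, 80.3%, 89.7% and 100%. Ptpn13 had the widest span of shares, and Tagln2 was found in most cells of every quartile. In Q1, 0 of 79 cells were below 1 FPKM for Tagln2, which allows a share of up to 3.8% (counting error only). Lonp2 was at 1 FPKM or more in 50% (36 of 72), 57.7%, 78.2% and 86.1% of cells, and Dpysl2 in 55.6%, 73.2%, 82.1% and 92.4%. Preparations differed most for Tagln2 in Q3, where the share ran between 40% (6 of 15 cells, preparation 1) and 100% (17 of 17, preparation 3).

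Among the cells that held a gene, its median level was also higher in Q1 than in Q4. These medians pool the cells of the 4 preparations and have no spread between preparations. The median in such cells was 250 FPKM in Q1 against 91.8 FPKM in Q4 for Tagln2, and 68.8 against 23.1 FPKM for Lonp2. Rasgrp2 had 42.3 FPKM in Q1 against 12.6 FPKM in Q4, with Q3 at 11.9 FPKM. Ptpn13 had 45.8 FPKM in Q1 and 43.1 FPKM in Q2, against 16.4 FPKM in Q3 and 19.8 FPKM in Q4. Dpysl2 had 87.3 FPKM in Q1 against 46.3 FPKM in Q4. One FPKM is a different number of reads for each gene: the lowest value above 0 was 0.075 FPKM for Ptpn13 and 0.744 FPKM for Tagln2, and 43 cells lay between 0 and 1 FPKM for Ptpn13 and 4 cells for Tagln2.

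**Figure D2:**
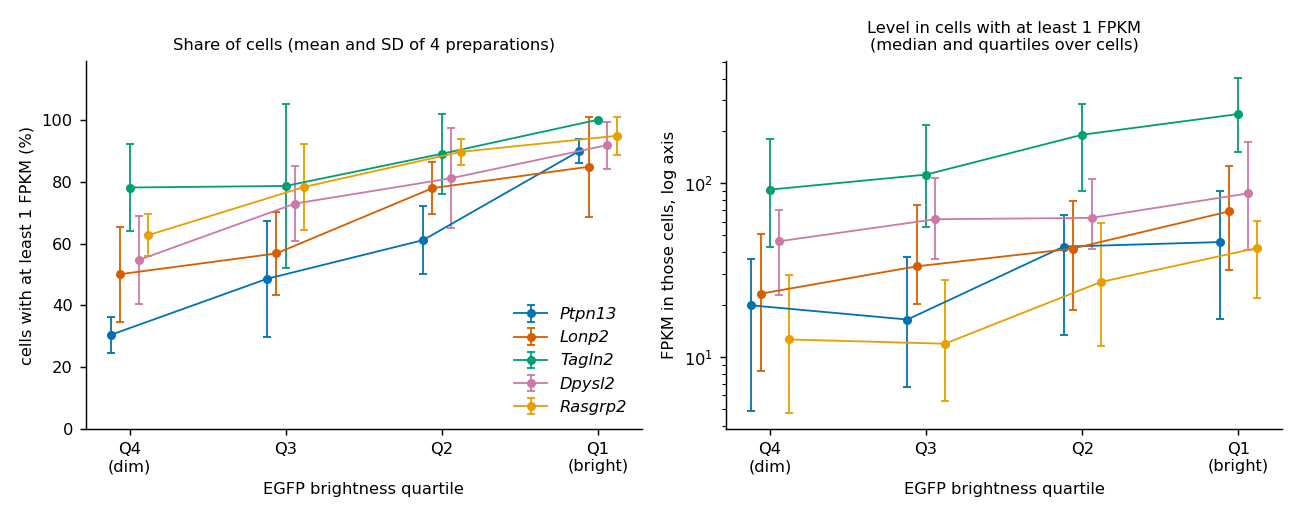
Left, percentage of cells with at least 1 FPKM (y axis) by quartile (x axis), as mean and SD of 4 preparations, with mean plus SD passing 100% where shares are near the limit; right, FPKM in those cells on a log axis, as median with the 25th and 75th percentiles over all cells of the quartile. Ptpn13 has the widest span of shares, 30.6% of cells in Q4 and 89.9% in Q1, and Tagln2 the highest level in each quartile.

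Cells that held all 5 transcripts were 9 of 72 in Q4 (12.5%), 13 of 71 in Q3 (18.3%), 29 of 78 in Q2 (37.2%) and 60 of 79 in Q1 (75.9%). Over preparations the Q1 share ran between 58.8% and 90.9% and the Q4 share between 10.5% and 15%. The mean number of the 5 genes per cell was 2.78, 3.38, 4.01 and 4.63 from Q4 to Q1. Detected genes per cell also differed a little, averaging 5687 ± 697 in Q1 and 5356 ± 810 in Q4 (SD over preparations, n = 4). With detected genes as a covariate, the slopes were 1.12 for Ptpn13, 0.97 for Lonp2, 0.81 for Tagln2, 0.84 for Dpysl2 and 0.92 for Rasgrp2.

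Platelets and leukocytes also express Rasgrp2 and Tagln2, so markers of these and other cell types were read in every cell. All 300 cells matched the spermatogonial list (Ddx4, Dazl, Zbtb16, Sall4, Lin28a and Uchl1; a match needs 5 FPKM in at least 3 of its measured genes and in at least 50% of them). A leukocyte list of 14 genes, 13 of them measured, was matched by 8 cells, of which 2 lay in Q4, 2 in Q3, 3 in Q2 and 1 in Q1, and a platelet list was matched by 0 cells, with Ppbp and Gp9 at 0 FPKM in all 300. The peritubular myoid list was matched by 1 cell, in Q4, and the endothelial, Sertoli and Leydig lists by 0 cells. The summed log2 level of the leukocyte list nevertheless had medians of 0.36, 2.34, 2.97 and 3.94 from Q4 to Q1, with ranges of 0.00 to 13.46 in Q1 and 0.00 to 12.72 in Q4. Of its members, Coro1a stood at 5 FPKM or more in 26 cells of Q1 against 8 of Q4 and Fcer1g in 24 against 8, whereas Ptprc, the pan-leukocyte gene, did so in 1 cell of Q1 and 0 of Q4, and Csf1r in 1 and 2. Rasgrp2 had a median of 3.78 FPKM in the 8 matching cells and 17.7 FPKM in the other 292, and Tagln2 89.9 and 144 FPKM. Without the 8 cells the slopes were 1.13 for Ptpn13, 0.96 for Lonp2, 0.96 for Tagln2, 0.89 for Dpysl2 and 0.88 for Rasgrp2.

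The 5 genes were next read cell by cell against Gfra1 and Etv5. Since all of them climb with brightness, cells with Gfra1 are mostly bright, and a plain comparison mixes the 2 relations. Of 174 cells with Gfra1, 128 held Ptpn13 (73.6%), against 48 of 126 cells without (38.1%). For Lonp2 the shares were 77.6% with Gfra1 and 56.3% without, for Tagln2 95.4% and 77%, for Dpysl2 85.6% and 63.5%, and for Rasgrp2 89.7% and 70.6%. All 5 together were found in 93 of the 174 cells with Gfra1 (53.4%) and by 18 of the 126 cells without (14.3%). With Etv5 it was 103 of 216 cells (47.7%), against 8 of 84 without (9.5%).

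The difference was therefore also taken inside each quartile of each preparation and averaged with Mantel-Haenszel weights. This removes differences between quartiles only: EGFP brightness still varies within a quartile, and its part in the values that follow was not tested. Ptpn13 kept the largest excess: its share was 21.2 ± 9.0 percentage points higher in cells with Gfra1 (SD over preparations, n = 4), at 9.5, 25.1, 30.7 and 21.5 points in preparations 1 to 4. Only 5 of the 10409 other genes had a larger difference, and the median gene had 0.0 points. This rank depends on detection, since genes found in few or in nearly all cells have less room for a difference in points. Ptpn13 was found in 58.7% of all cells. In Q1 it was held by 62 of 65 cells with Gfra1 (95.4%) and 9 of 14 without (64.3%), and in Q4 by 9 of 21 with Gfra1 (42.9%) and 13 of 51 without (25.5%). With the preparations pooled, the excess thus appeared at both ends of the brightness range, but no value per preparation was taken there. In preparation 2 all 21 cells of Q1 held Gfra1, so none of the 14 cells without it came from there. Counting every value above 0 FPKM as detection, the difference for Ptpn13 was 11.1 points.

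Tagln2 had 11.1 ± 3.8 points with Gfra1 and Rasgrp2 10.5 ± 6.8, both positive in 4 of 4 preparations. Dpysl2 had 10.3 ± 10.9 and Lonp2 9.3 ± 13.3, each positive in 3 of 4, with preparation 4 at -2.3 points for Dpysl2 and -3.2 points for Lonp2. For Lonp2 the difference was smaller than the spread between preparations, and for Dpysl2 about as large as it. With detection at 5 FPKM the differences were 21.6 points for Rasgrp2, 18.3 for Tagln2, 7.6 for Lonp2 and 1.2 for Dpysl2. With every value above 0 FPKM counted they were 5.8, 7.9, 5.8 and 6.9 points for the same 4 genes. Cells with Gfra1 had 5655 detected genes on average and cells without 5382, and within quartile and preparation the difference was -23 genes.

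With Etv5 the values were less steady. Tagln2 had 17.8 ± 15.6 points, Ptpn13 14.6 ± 20.3 and Rasgrp2 9.0 ± 5.4, and the order of the 3 depended on the settings. With detection at 5 FPKM it was Ptpn13 at 27.6, Rasgrp2 at 19.5 and Tagln2 at 12.6 points, and above 0 FPKM Ptpn13 at 14.2, Tagln2 at 10.4 and Rasgrp2 at 8.4. Without preparation 3 Ptpn13 had 6.4 points, and without preparation 2 Tagln2 had 11.6. Rasgrp2 was the only one of the 5 above 0 in every preparation, at 7.4, 16.7, 7.0 and 4.3 points. Lonp2 had 4.5 ± 20.2, with preparations 1 to 4 at 20.2, 13.5, 8.8 and -25.1. Dpysl2 had -1.7 ± 19.9, with 26.4, -19.9, -8.0 and -7.2, so its sign rested on which preparation was read. Bright cells without Etv5 are rare, 4 in Q1 and 7 in Q2, and the part of this in the spreads was not tested. The median gene stood at -3.5 points here, and the number of detected genes differed by -445 between cells with and cells without Etv5 in the same quartile and preparation; the part of this in the differences was not tested.

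**Figure D3:**
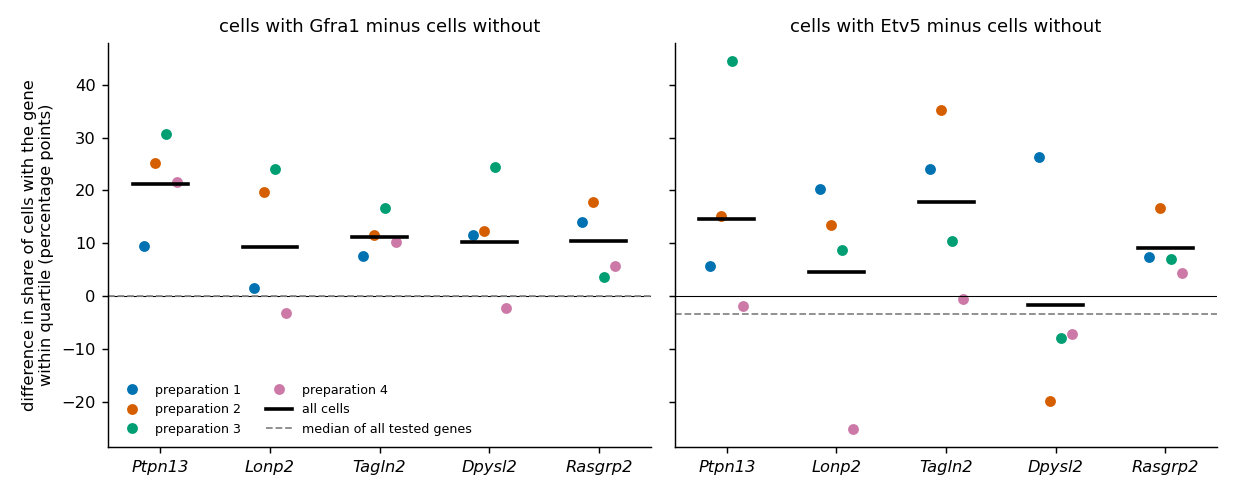
Difference in the share of cells holding each gene (y axis, percentage points) between cells with and cells without Gfra1 (left) or Etv5 (right), taken within quartile and preparation; coloured points are the 4 preparations, black bars all cells and the dashed line the median of all tested genes. Ptpn13 is above 0 in all 4 preparations for Gfra1, at 9.5 to 30.7 points, and Dpysl2 is below 0 in 3 of 4 for Etv5.

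Correlations over the 300 cells, computed on log2(FPKM + 1) after subtracting the mean of the cell's own preparation and quartile, give a second view of the same cells. They are descriptions over cells that share libraries, chips and normalisation. Rasgrp2 was the gene tied most to the rest, with r = 0.36 to Ptpn13, 0.33 to Lonp2, 0.23 to Tagln2 and 0.15 to Dpysl2. It also had r = 0.33 to Etv5 and 0.28 to Gfra1, beside 0.39 between Gfra1 and Etv5 themselves. Ptpn13 followed with 0.32 to Etv5 and 0.25 to Gfra1. Tagln2 (0.20 to Etv5 and 0.18 to Gfra1) and Lonp2 (0.13 and 0.14) were weaker, and Dpysl2 stood near 0, with r = -0.04 to Etv5 and 0.03 to Gfra1.

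Dpysl2 is the gene for which the 2 ways of reading differ most. Over the 16 means, with the preparation mean subtracted, its r was 0.92 with Etv5 and 0.92 with Gfra1, ranks 2 and 7 of 9711 genes. Over cells within a quartile and preparation the same pairs had ranks 8163 and 4327. For Rasgrp2 the ranks of Etv5 were 29 over the means and 5 over cells, and for Ptpn13 they were 52 and 8. Ptpn13 and Dpysl2, which both climb in all preparations, had r = 0.03 with each other within quartiles. The 16 means share the quartile order through which the genes were chosen, so high values there follow from the choice.

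**Figure D4:**
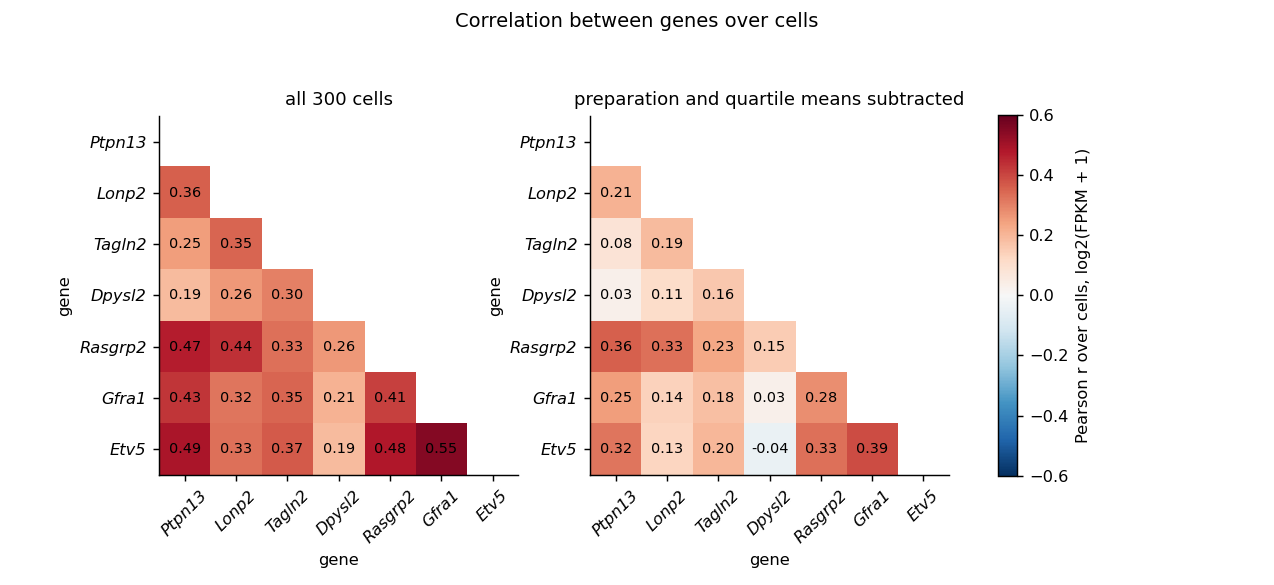
Pearson r between genes over 300 cells on log2(FPKM + 1), with both axes listing the 5 genes, Gfra1 and Etv5; left over all cells, right after subtracting the mean of each preparation and quartile, with colour from blue (negative) to red (positive). After subtraction the pair Ptpn13 and Rasgrp2 keeps 0.36, and Dpysl2 with Etv5 is at -0.04.

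The genes most like each member in this within-quartile measure were the following. For Ptpn13 they were Ppfibp2 (r = 0.37), which encodes a liprin, Rasgrp2 (0.36) and Scmh1 (0.36), a Polycomb-group gene. Rasgrp2 was closest to Mcam (0.38), a cell adhesion molecule, Dusp6 (0.37), a phosphatase of ERK, and Ptpn13 (0.36). For Lonp2 they were Rasgrp2 (0.33), the glutathione transferase gene Gstp1 (0.32) and the basement membrane gene Nid1 (0.29). All of these rose over the quartiles themselves. Tagln2 was closest to Ywhaz (0.27), Tor1aip2 (0.27) and Phgdh (0.25), and Dpysl2 to Atg14 (0.27), Pde1c (0.25) and Tubg1 (0.23), and none of these 6 passed the trend test (limma adjusted p = 0.0626 to 0.762).

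Over the 16 means the nearest genes were mostly others, with Rasgrp2 again among those of Lonp2. They were Nefm (r = 0.96), Spry4 (0.95) and Arhgap26 (0.94) for Ptpn13, and Spry4 (0.96), Rasgrp2 (0.95) and Map4k4 (0.94) for Lonp2. For Tagln2 they were Bhlhe41, Map4k4 and Nsun6 (0.92 each). For Dpysl2 they were Ado (0.93), Etv5 (0.92) and Mmadhc (0.92), and for Rasgrp2 Lonp2 (0.95), Cbln2 (0.94) and Spry2 (0.94). Spry2 and Spry4 encode Sprouty proteins, feedback inhibitors of receptor tyrosine kinase signalling.

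Relatives and partners of the 5 were read from 10 lists of 147 genes, of which 109 were tested. Of the 109, 10 rose with brightness (9.17%, against 3.77% of all tested genes) and 0 fell (against 0.74%), at a limma adjusted p under 0.05. The lists were chosen with earlier results of these data known, so these shares are a description. Among the 10, the calls of Ptpn12, Ptpn3, Cnn2 and Rasa3 are lost under most other settings. The call of Rapgef3 is not separate from the filter. The median slope of the 109 was 0.06, against 0.034 for all genes. Most relatives of the 5 genes did not pass the trend test, and the plot of slopes by list shows them between -0.24 and 0.70.

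**Figure D5:**
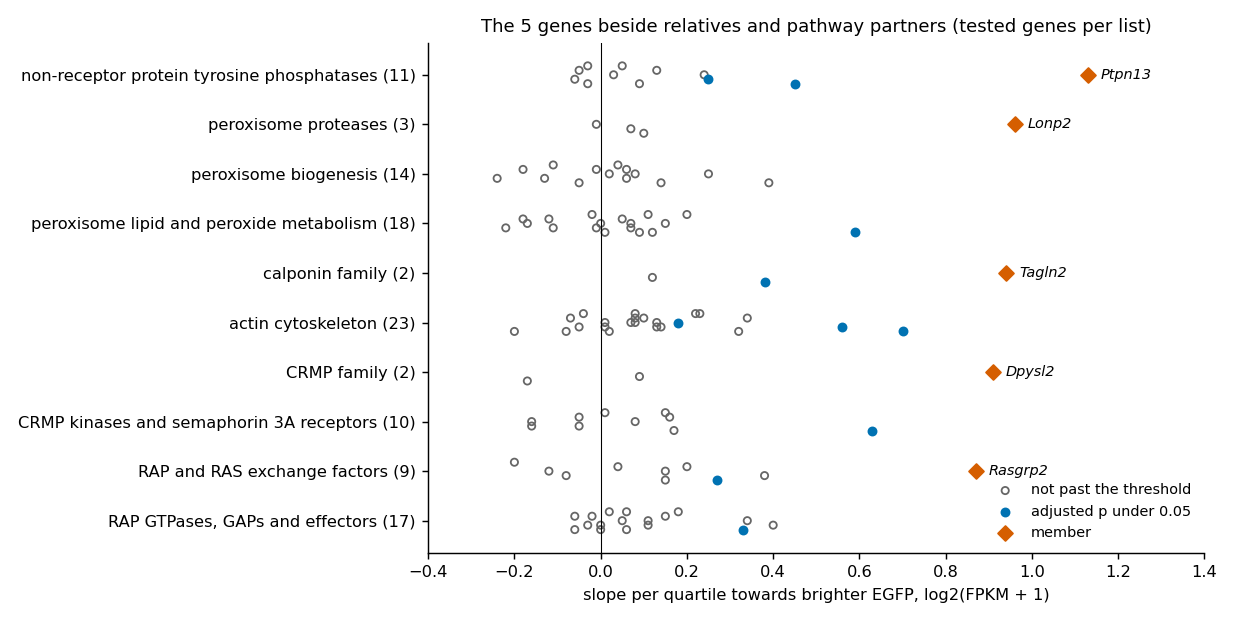
Slope per quartile towards brighter EGFP in log2(FPKM + 1) (x axis) for the tested genes of each list (rows, number tested in brackets); filled blue points passed the trend test, open points did not, and orange diamonds are the 5 genes, which were chosen by their slope. No list gene exceeds 0.70, and the 5 lie between 0.87 and 1.13.

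Of the non-receptor tyrosine phosphatases, 2 of 11 tested rose, Ptpn12 (slope 0.45, limma adjusted p = 0.0359) and Ptpn3 (0.25, adjusted p = 0.0436). For Ptpn3, on the log2 scale, Q1 averaged 1.10 ± 0.13 against 0.48 ± 0.26 for Q4 (SD, n = 4). Ptpn14 had a slope of 0.13 (adjusted p = 0.324), and Ptpn2 had 0.24 (adjusted p = 0.272). The calls of Ptpn12 and Ptpn3 are lost under most other settings, in 9 of 13 and in 10 of 12.

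None of the 3 other proteases of the list, Lonp1, Ide and Tysnd1, passed, nor did any of 14 peroxisome biogenesis genes. Lonp1, the mitochondrial Lon protease, had a slope of 0.10 (limma adjusted p = 0.714), and Tysnd1, the processing protease of the peroxisome, -0.01 (adjusted p = 0.966). Of 18 genes of peroxisomal lipid and peroxide metabolism 1 rose: Eci2, an enoyl-CoA isomerase, averaged 5.70 ± 0.72 in Q1 and 3.90 ± 0.59 in Q4 on the log2 scale (SD, n = 4; slope 0.59, adjusted p = 0.00509). The Q1 mean was the higher one in each of the 4 preparations. With preparation 3 left out, with detected genes as a covariate or on the log2 of mean FPKM, Eci2 no longer passed.

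Around Tagln2, the calponin Cnn2 rose (slope 0.38, limma adjusted p = 0.048) and Cnn3 had 0.12 (adjusted p = 0.605), while Tagln, Tagln3 and Cnn1 were below the filter. The Cnn2 call is lost in 11 of 12 other settings. Of 23 actin cytoskeleton genes 3 rose. Capg, which caps actin filaments, averaged 4.40 ± 0.69 in Q1 and 2.34 ± 0.98 in Q4 (slope 0.70, adjusted p = 0.000127). Msn (moesin), which links actin to the membrane, averaged 2.58 ± 0.97 and 1.18 ± 0.43 (slope 0.56, adjusted p = 0.00334), and Actb, beta-actin, 10.28 ± 0.32 and 9.76 ± 0.29 (slope 0.18, adjusted p = 0.00509; SD, n = 4). Capg and Msn no longer passed on the log2 of mean FPKM. Actb no longer passed with median centring of the 16 sets of means, without a term for preparation, without preparation 3 or without preparation 4.

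Dpysl2 was the only abundant CRMP gene: Dpysl3 was at 1 FPKM or more in 43 cells and Dpysl5 in 30, against 229 for Dpysl2, and Crmp1, Dpysl4 and Dpys were below the filter. Neither Dpysl3 (slope -0.17, limma adjusted p = 0.138) nor Dpysl5 (0.09, adjusted p = 0.332) passed. Of 10 tested kinases, partners and semaphorin 3A receptor genes 1 rose: Fyn, a SRC-family kinase that phosphorylates CRMP2, averaged 4.15 ± 0.41 in Q1 and 2.18 ± 0.57 in Q4 (SD, n = 4; slope 0.63, adjusted p = 0.0031), and it no longer passed on the log2 of mean FPKM or without preparation 3. The semaphorin 3A receptor genes Nrp1 and Nrp2 and the ligand gene Sema3a were below the filter. Of their co-receptors, Plxna3 had a slope of -0.16 (adjusted p = 0.0812) and Plxna1 one of -0.16 (adjusted p = 0.352), with Q1 above Q4 in 0 of 4 preparations for each, and Plxna2 and Plxna4 were below the filter.

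Rasgrp2 was likewise the only RASGRP gene above the filter. Of 9 other exchange factors for RAP and RAS 1 rose: Rapgef3 (EPAC1, the cyclic AMP-driven exchange factor for RAP1). Its log2 level was 0.79 ± 0.33 for Q1, against 0.02 ± 0.04 for Q4 (SD, n = 4). The trend was 0.27 per quartile (limma adjusted p = 0.00277). Rapgef3 was found in 31 cells, barely past the filter of 30. With so low a Q4 mean it entered the test through brighter cells, so its call is not separate from the filter. The call held in 12 of 12 other settings, at a limma adjusted p of up to 0.0445. The stricter filter of 90 cells is not among these, since it leaves Rapgef3 out. Rapgef2 had a slope of 0.38 (adjusted p = 0.0571). Of 17 RAP GTPases, their inactivating proteins and effectors 1 rose, Rasa3, a RAP1 and RAS inactivating protein (slope 0.33, adjusted p = 0.0496), a call lost in 9 of 13 other settings. Of the genes for the small GTPase RAP1 itself, Rap1a, found in 128 cells, had a slope of 0.15 (limma adjusted p = 0.422). Rap1b, found in 280 cells, had one of -0.06 (limma adjusted p = 0.832).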

How the data were processed

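The values are FPKM per gene and cell as deposited by the authors in one matrix of 300 cells. TopHat, Cufflinks, FastQC and Picard with mm10 (GRCm38) are named in the submitters' processing notes, without versions; that the unit is FPKM was taken from these tools and the values. Columns were matched to cells by title, 0 columns were without a sample and 0 were identical. Values of 0 are written as listed. Cells had 2934 to 7817 genes at 1 FPKM or more (median 5501). Read totals are not in the matrix; relative depth, estimated from the value of a single read among low values, ran between 0.376 and 1.853 of the median cell and averaged 0.96 in Q1 and 0.94 in Q4.

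Cells were averaged as log2(FPKM + 1), with a pseudocount of 1, per preparation and quartile. The 16 means were fitted with limma 3.58.1 (R 4.3.3; other steps in Python 3.11.15), with the preparation as a block, over the 10411 genes that reached 1 FPKM in 30 cells or more, and p-values were adjusted by Benjamini-Hochberg. The steps were tested on simulated data. A fold on this scale understates changes of low genes. The number from 1 to 4 in the titles was taken as the preparation, which the labels do not state; n = 4, the block and every value per preparation rest on this reading. Deviations of same-preparation means from their quartile mean correlated at 0.0112 to 0.36 in all 24 pairs (median 0.129). The median between preparations was -0.0431. Subtracting the quartile means pushes that value below 0 when the same-preparation values are above 0, so it is no separate support. Without the block the trend called 177 genes rather than 470. Each preparation pools mice. The block takes out level differences between preparations. The p-values rest on the scatter of the 16 means that remains after the terms of each fit.

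The 5 genes, the lists and the settings were chosen with earlier results of these data known. Besides the 5, genes were named as the up to 4 smallest trend p-values of a list and the 3 highest correlations per gene, leaving out predicted genes.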

Additional observations from a re-analysis of the deposited data

Results flagged for a closer look

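Of 55 groups of 4 preparation values that were examined, 2 held a value standing far from the other 3 relative to the group's range; chance gives about 1 in 20. The mean log2(FPKM + 1) of Ptpn13 in Q1 was 4.18 in preparation 1, against 4.87, 4.82 and 4.94 in preparations 2, 3 and 4. The share of Q4 cells with Rasgrp2 was 52.6% in preparation 4, against 66.7%, 65% and 66.7% in preparations 1, 2 and 3.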

How the results depend on the processing

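The slopes of the 5 genes kept their sign and passed the trend threshold in all 13 alternatives run, which is no independent support since they were chosen by slope; they ran between 0.46 (Tagln2, log2 of mean FPKM) and 1.67 (Ptpn13, pseudocount of 0.1). The number of genes past the trend threshold, 470, depended more on the settings: 177 without the replicate block, 274 with no filter, 197 with detected genes as a covariate, 113 on the log2 of mean FPKM, and 176 to 354 with 1 preparation left out (256 without preparation 2, 176 without 3, 213 without 4). Rising genes were 83.6% of the calls, and 72.1% with detected genes as a covariate. They were 54.4% when each of the 16 sets of means was centred on its median over genes. This centring moved the median slope of all genes to -0.025, against 0.034. Curvature called 1 gene with a pseudocount of 0.1 and 1 with the stricter filter, and 0 in the other 11 alternatives; slope differences called 0 in all 12. The cause of these shifts was not tested. Leaving out 1 preparation, the within-quartile difference with Etv5 ran between -1.3 and 14.6 points for Lonp2 (4.5 with all) and between -12.0 and 4.8 points for Dpysl2 (-1.7 with all; 0.1 without preparation 3 and 0.2 without 4), so neither has a settled sign; all differences with Gfra1 stayed above 0. Splitting cells further at the median of detected genes, chosen after seeing the data, gave 19.1 points for Ptpn13 with Gfra1 and 10.6 for Lonp2 with Etv5. Detection at 1 FPKM and 15 to 22 cells per mean limit the shares.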
